A study of Mus musculus with 4 samples.

Results

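The strongest NANOG binding sites of O4AID embryonic stem cells (ESCs) were the windows whose mean NANOG signal over uninduced and indole-3-acetic acid (IAA)-treated cells was 12 RPKM or more (read counts normalized by window length and library size). There were 678 such sites, here called strong sites, or 3.22% of the 21066 windows, each 351 bp wide and placed on the summit of a NANOG peak. They were compared with 2196 windows of 6 to 12 RPKM and 13734 weaker bound windows, where bound means 0.9 RPKM or more in either condition (16608 windows in all). Strong sites were chosen by their level, which is therefore no finding, and since a mean of 12 RPKM can be reached through 1 condition alone (341 sites reached 12 RPKM after IAA only and 5 in uninduced cells only), the rule also favours sites that were higher after IAA. Chromatin immunoprecipitation of NANOG followed by sequencing (ChIP-seq) was carried out in ZHBT-O4AID ESCs of strain 129SV, either uninduced (2 libraries) or after 500 μM IAA for 1.5 h (2 libraries). Both groups lacked functional endogenous Oct4 (Oct4-/-), carried the transgenes TetOFF Oct4, CAG Oct4AID and CAG Tir1, and were grown in N2B27 with PD03, Chiron, LIF and doxycycline, which holds the Tet-OFF copy of Oct4 silent. OCT4 was therefore supplied only as a degron fusion from a constitutive CAG promoter in 1 cell line, and IAA leads the TIR1 adaptor to mark this fusion for destruction. The libraries were independent immunoprecipitations, the sources used here do not say whether they came from separate cultures, and p-values measure only the spread between these libraries.

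NANOG is a homeodomain transcription factor of the naive pluripotency network, and in ESCs it occupies many enhancers together with OCT4 and SOX2. OCT4 binds the octamer through its POU domain and often sits next to SOX2, whereas homeodomains read short words with a central ATTA. ChIP-seq signal at a site reflects how often the factor was crosslinked there over the cell population, and it is measured relative to all other reads of the library.

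The strongest site had a mean of 49.9 RPKM, the median strong site 15.99 RPKM, and 183 sites reached 20 RPKM, 44 reached 30 RPKM and 8 reached 40 RPKM. The central bases of 5 of the 10 strongest sites are shown because these loci are described next, on the plus strand of GRCm38/mm10 with the words searched for (given below) in capitals. Among all 10, only the Lifr and Ticrr stretches, both shown, held such a word in these bases, a SOX word and a homeodomain word respectively.
Ranbp17 site, chr11:33537526-33537626: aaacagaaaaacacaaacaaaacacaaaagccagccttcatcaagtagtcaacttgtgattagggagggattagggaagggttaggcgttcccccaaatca
Foxd3 site, chr4:99636134-99636234: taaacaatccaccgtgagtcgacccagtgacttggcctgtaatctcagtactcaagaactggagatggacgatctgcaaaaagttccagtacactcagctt
Tet2 site, chr3:133524793-133524893: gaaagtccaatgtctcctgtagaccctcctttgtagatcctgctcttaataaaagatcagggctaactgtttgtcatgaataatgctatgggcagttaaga
Lifr site, chr15:7082019-7082119: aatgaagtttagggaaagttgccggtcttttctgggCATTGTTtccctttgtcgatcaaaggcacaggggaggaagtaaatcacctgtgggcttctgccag
Ticrr site, chr7:79654673-79654773: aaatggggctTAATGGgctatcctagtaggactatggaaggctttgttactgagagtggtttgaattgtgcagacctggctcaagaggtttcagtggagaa

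Of the 10 strongest sites, 9 lay within 1 kb of an OCT4 site (co-bound) and 7 were intergenic. The 10 lay 467 bp to 23.8 kb from the nearest annotated transcript start (GENCODE, mouse release M21). The strongest of all, at chr11:33537401-33537751, was an intergenic enhancer-class window 23830 bp from the start of Ranbp17, which encodes a member of a nuclear transport receptor family. Its signal was 29.4 and 48.1 RPKM in uninduced replicates 1 and 2 and 45.7 and 76.4 RPKM in IAA replicates 1 and 2, from 85, 197, 315 and 145 reads. Uninduced replicate 2 was above IAA replicate 1, so the conditions overlapped at this site.

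The second, at chr19:23094897-23095247, lay 46154 bp from Klf9, a Krüppel-like zinc finger gene, and had 28.7 and 46.9 RPKM before and 42.8 and 78.5 RPKM after IAA. The third, at chr11:3145714-3146064 in an intron of Sfi1, a centrosomal protein gene, had 31.5 and 35.6 RPKM before and 48.3 and 77.5 RPKM after IAA, with no overlap between conditions and an adjusted p of 0.226 (limma). This window has a further copy in the genome at 90% or more identity over at least 300 bases, so reads of both copies may have been assigned to it. The fourth, at chr4:99636009-99636359 and 20115 bp from Foxd3, a forkhead gene active in ESCs, had 37.7 and 50.5 RPKM before and 37.7 and 61.1 RPKM after IAA. The treated and untreated values interleaved, and the log2 difference was 0.14 ± 0.53 (SE).

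The site in an intron of Tet2 (chr3:133524668-133525018), a dioxygenase gene that initiates DNA demethylation, also interleaved, with 33.9 and 45.6 RPKM before and 38.3 and 49.0 RPKM after IAA. The Lifr site (chr15:7081894-7082244), 8545 bp from the start of the LIF receptor gene, was the 1 site of the 10 without a nearby OCT4 site. It had 21.4 and 37.3 RPKM in uninduced cells and 44.5 and 57.4 RPKM after IAA, so its treated libraries were both higher. The Ticrr site (chr7:79654548-79654898), 5473 bp from the start of a DNA replication gene, had 28.7 and 35.1 RPKM before and 36.1 and 49.5 RPKM after IAA, with a narrow gap between the conditions. Over all 10 sites the log2 change on the log2(RPKM + 0.1) scale ranged from 0.14 to 0.87, both treated values exceeded both uninduced values at 5, and 0 passed limma, with adjusted p-values of 0.225 to 0.862. IAA replicate 2 was above IAA replicate 1 at 10 of 10.

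**Figure D1:**
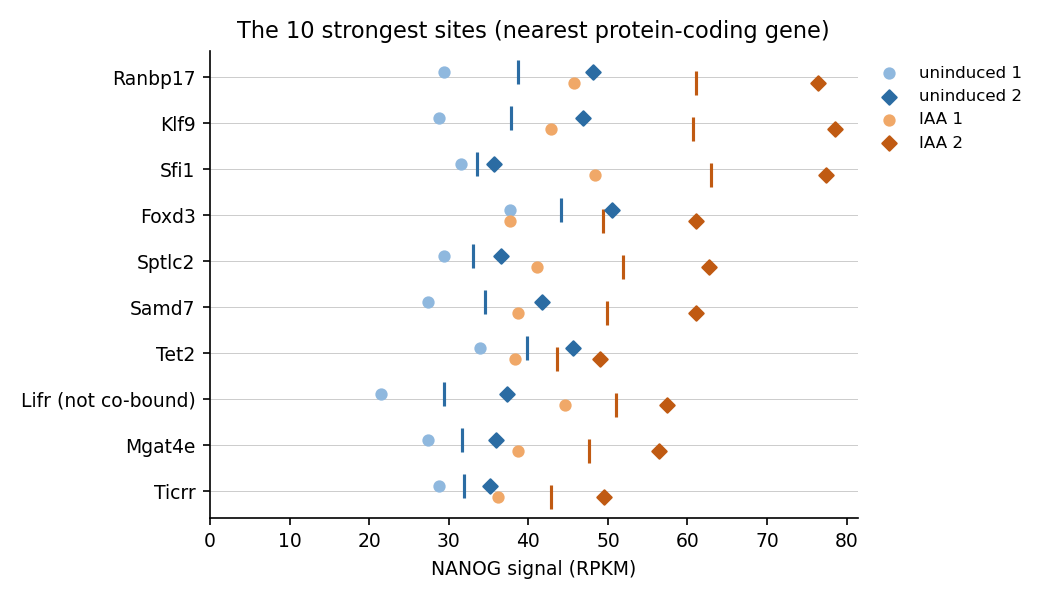
NANOG signal in RPKM (horizontal axis, from 0) at the 10 strongest sites in each of the 4 libraries, with the nearest protein-coding gene on the vertical axis, points for libraries and vertical ticks for the mean of the 2 libraries of a condition. IAA replicate 2 is the highest value in every row, and uninduced replicate 2 lies above IAA replicate 1 in 5 of 10 rows.

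The threshold cut through a continuous range of signal. The 3 sites just inside it were an intergenic site on chromosome 6 (7.61 and 9.03 RPKM before, 14.5 and 16.9 RPKM after IAA), a second Foxd3 site (6.92 and 12.7 RPKM, then 15.2 and 13.2 RPKM) and a site in an untranslated region of the kinase gene Eif2ak4 (5.88 and 8.05 RPKM, then 14.1 and 20.03 RPKM). The 3 windows just outside it lay near Zbtb44 (5.19 and 5.61 RPKM, then 12.9 and 24.2 RPKM), Zc3hav1 (11.1 and 14.6 RPKM, then 11.2 and 11.1 RPKM) and Sik1 (6.92 and 10.2 RPKM, then 16.5 and 14.2 RPKM). These windows on either side had like levels. Both treated values were above both uninduced values at all of them except the Zc3hav1 window. There the values interleaved, with a log2 difference of -0.19 ± 0.43 (SE).

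The libraries held 8236968 and 11674801 reads (uninduced) and 19634763 and 5406307 reads (IAA), recovered from the steps of the RPKM values, and the strong sites held 20974, 45119, 95819 and 31882 of them in the same order. A strong site had a median of 27, 60, 132 and 42 reads, so that counting alone gives an SD of 19.2%, 12.9%, 8.70% and 15.4% at the median site. Across strong sites the SD of the log2 ratio between replicates was 0.340 for uninduced and 0.245 for IAA libraries, beside 0.340 and 0.257 computed from read counting alone. This SD leaves out the gap that all sites of 2 replicates share. By class of strong sites, the median log2 gap in RPKM was 0.56 to 0.63 between uninduced and 0.19 to 0.44 between IAA replicates. Pearson's r between replicates over strong sites was 0.826 (uninduced) and 0.869 (IAA), a description over windows of the same libraries, against 0.567 and 0.618 at 6 to 12 RPKM.

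Strong sites carried more NANOG signal after IAA, by about the amount seen over all bound windows. The library median over strong sites was 9.34 and 14.6 RPKM in uninduced replicates 1 and 2 and 19.2 and 22.1 RPKM in IAA replicates 1 and 2. Both treated medians were above both uninduced medians. The means of the log2 medians were 3.56 ± 0.45 and 4.37 ± 0.15 (SD, n = 2 each), a difference of 0.81 with an exact permutation p of 0.33 (two-sided), the smallest that 2 libraries against 2 allow. It was 0.67 when 12 RPKM was required in both conditions and 0.04 with quantile normalization, which sets all libraries to the same distribution. Relative to the median of all bound windows in the same library, strong sites stood 2.12 and 2.28 log2 units higher before and 2.26 and 2.36 after IAA, a difference of 0.11 (exact permutation p = 0.67). That difference turned to -0.03 when 12 RPKM was required in both conditions and to -0.01 when reads were thinned to equal depth, so no change of strong sites relative to other bound windows was detectable here.

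Strong sites took up 0.255% (95% Wilson interval 0.251 to 0.258%) and 0.386% (0.383 to 0.390%) of all sequenced reads before treatment and 0.488% (0.485 to 0.491%) and 0.590% (0.583 to 0.596%) after IAA. Intervals cover counting error only, and the 2 libraries of a condition lay outside each other's intervals. Of the reads in bound windows, strong sites held 15.9% and 17.0% before and 16.01% and 18.2% after IAA, and here the conditions overlapped (difference 0.68 percentage points, exact permutation p = 0.67).

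Single strong sites were tested with limma over all 16608 bound windows. At an adjusted p below 0.05, 134 strong sites were higher after IAA (19.8% of them) and 1 was lower, against a background of 15% of bound windows called higher and 0.337% called lower. The median change was 0.84 (log2) at strong sites and 0.76 over all bound windows, and it was positive at 649 of 678. Both treated values were above both uninduced values at 549 strong sites (81.0%) and below them at 6 (0.885%), beside 60.5% and 4.23% of bound windows. Nothing is read from the higher shares at strong sites, since 341 of the 678 reached 12 RPKM only through their IAA value and all were measured with more reads than weaker windows. The calls rest on the scaling to total reads: with the medians of the libraries aligned, 9 strong sites were higher and 16 lower, with quantile normalization 0 were higher and 1 lower (132 and 82 at an unadjusted p below 0.05), and with either IAA library left out 0 sites were called in either direction (51 higher and 0 lower without IAA replicate 1 and 18 higher and 0 lower without IAA replicate 2 at an unadjusted p below 0.05). With uninduced replicate 2 left out 491 were higher.

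The largest rise among sites with separated conditions was at an intergenic site 37857 bp from Bcas2, a splicing factor gene (chr3:103209467-103209817). Its signal was 3.46 and 6.34 RPKM before and 21.3 and 19.5 RPKM after IAA, from 10, 26, 147 and 37 reads. The log2 change was 2.10 ± 0.42 (SE). A site in the neighbourhood of Klf12, 165980 bp from its start, followed with 4.50 and 8.30 RPKM before and 23.4 and 24.8 RPKM after IAA.

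The third rise, at chr7:144889067-144889417, lay 7289 bp from Fgf15 and 23999 bp from the body of Fgf4, the FGF ligand that drives ERK signalling in ESCs. It went from 6.92 and 8.30 RPKM to 25.1 and 32.7 RPKM (log2 change 1.90 ± 0.43) and was the 1 co-bound site among the 5 largest rises. The remaining ones, in an intron of Tiam1, an exchange factor gene for the GTPase RAC, and near Chic2, changed by 1.82 and 1.81 log2 units. By mean signal the 5 ranked 230 to 596 among the 678 strong sites. Their uninduced means were 4.90 to 7.61 RPKM, so all 5 met the rule only through their IAA values and their rises are given as a description with no test.

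The only strong site called lower was an enhancer-class, co-bound site 3812 bp from Ssr2, a gene of the translocon-associated protein complex (chr3:88571889-88572239). It had 24.2 and 39.0 RPKM in uninduced cells and 13.1 and 13.2 RPKM after IAA, from 70, 160, 90 and 25 reads, so the treated values were nearly equal and lay below both untreated ones. The log2 change was -1.22 ± 0.45 (adjusted p = 0.0468, limma). It was not called with a pseudocount of 0.01 (adjusted p = 0.0522, limma), over all windows (0.0585), without a variance trend (0.12) or with either IAA library left out (0.513 and 0.598), and it was still lower with quantile normalization (adjusted p = 0.0336, limma) and with library medians aligned (0.00135).

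The other 4 of the 5 largest falls with separated conditions were not called. The site near Srgap3, a GTPase-activating protein gene (chr6:112950348-112950698), had 18.7 and 28.3 RPKM before and 12.3 and 15.3 RPKM after IAA (adjusted p = 0.218, limma), and it too was an enhancer-class, co-bound site. Sites in introns of Apool, Nsf and Rtf1 differed by -0.45, -0.44 and -0.42 log2 units, and the Apool window has a further near-identical copy in the genome. Of the 29 strong sites with a negative log2 difference, 23 (79.3%) were co-bound, beside 47.3% of all strong sites. Of the 2365 bound windows with a negative difference 47.9% were co-bound, beside 23.7% of all bound windows.

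The share of windows with OCT4 co-binding followed the NANOG signal: 321 strong sites (47.3%) had an OCT4 site within 1 kb, against 35.2% at 6 to 12 RPKM and 20.6% of weaker bound windows. Within the strong sites it rose from 42.8% at 12 to 15 RPKM through 44.3% at 15 to 20 and 55.4% at 20 to 30 to 65.9% (29 of 44) at 30 RPKM or more. The OCT4 sites came from published ChIP-seq of other ESCs, so they mark where OCT4 can bind and not what it occupied in these libraries.

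Co-bound strong sites had higher signal than the others before IAA and about equal signal after it. Their median was 10.7 and 16.1 RPKM in the uninduced libraries, against 8.65 and 12.9 RPKM at sites that were not co-bound. After IAA the medians were 18.9 and 22.1 RPKM at co-bound and 19.3 and 22.1 RPKM at other strong sites. The gap between the kinds, in log2 units within a library, was 0.31 and 0.31 before and -0.03 and 0.00 after IAA. It thus differed between conditions by -0.33 with an SD between replicates of 0.02 (exact permutation p = 0.33, the smallest possible), and this value was -0.32 with quantile normalization and -0.31 to -0.34 with any 1 library left out, but -0.16 when 12 RPKM was required in both conditions. The levels and the change of each kind are both tied to the rule, which lets a site in through its IAA value alone.

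The median change was 0.70 at co-bound strong sites and 0.97 at the others. Called higher were 30 of 321 (9.35%) and 104 of 357 (29.1%), beside 19.8% of all strong sites and 15% of all bound windows. Nothing is read from these shares, since the rule lets sites in through their IAA value alone. The medians of the 2 kinds lay closer at strong sites than in the weaker classes. There they were 0.41 against 1.00 (6 to 12 RPKM) and 0.33 against 0.83 (weaker bound windows). All 3 classes were set by the mean of the conditions, and the difference between them was not tested, since windows of 1 library are not replicates.

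**Figure D2:**
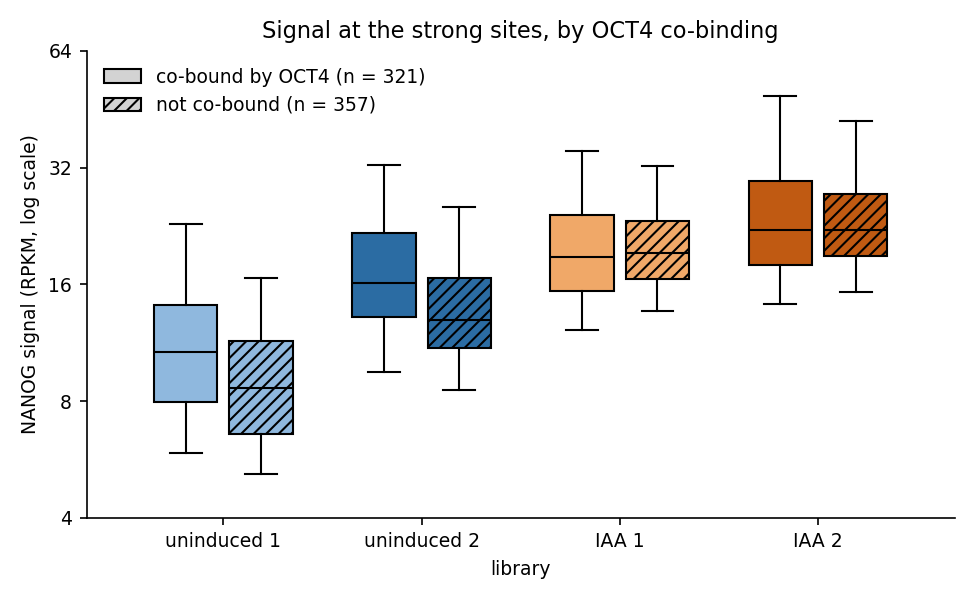
NANOG signal in RPKM (log axis) at strong sites in each library, for sites within 1 kb of an OCT4 site and the others. Boxes span the quartiles with the median as a line, whiskers reach the 5th and 95th percentiles, and the co-bound boxes lie above the others in both uninduced libraries and level with them in both IAA libraries.

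**Figure D3:**
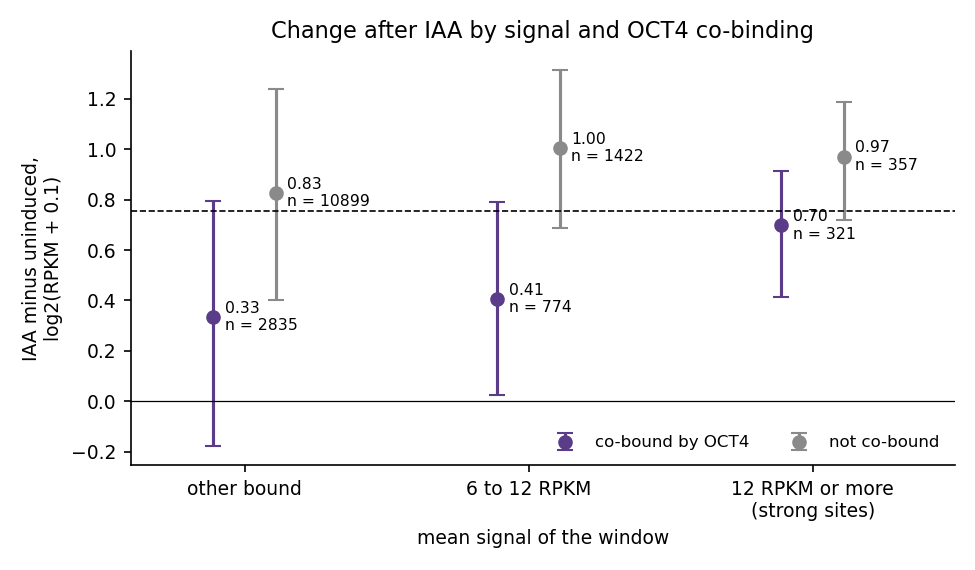
Median change after IAA in log2(RPKM + 0.1) for windows of rising mean signal, split by OCT4 co-binding, with bars from the first to the third quartile over windows and a dashed line at the median of all bound windows. The co-bound median climbs from 0.33 through 0.41 to 0.70 at strong sites and the other medians are 0.83, 1.00 and 0.97.

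Active enhancer marks followed the same order as OCT4. The enhancer class (P300 with H3K27ac) held 135 strong sites (19.9%), 15.98% of windows at 6 to 12 RPKM and 9.23% of weaker bound windows, and 102 of the 135 were co-bound. Enhancer-class strong sites changed by a median of 0.75, and the 524 (77.3%) in no chromatin class by 0.86. Only 19 strong sites (2.80%) were of the active promoter class and 15 (2.21%) of the repressed class. By position, 9.29% lay within 1 kb of a transcript start, 52.5% in introns and 41.2% between genes, and these shares were 9.11%, 52.6% and 41.7% at 6 to 12 RPKM.

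Strong sites lay nearer to other NANOG windows than weaker ones did. The nearest window was a median of 14.1 kb away for strong sites, 17.3 kb at 6 to 12 RPKM and 21.7 kb for weaker bound windows, and 63.3%, 57.3% and 49.97% had a further bound window within 25 kb. They were found on 20 chromosomes, with 8 to 58 sites each. Their GC content (median 45.3%) was close to that of all bound windows (46.2%), and 8.55% were at least 50% repeat-masked sequence, against 18.6% of weaker bound windows and 81.9% of the windows that were not bound.

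Of 9 words searched on both strands, the most frequent in strong sites was the homeodomain word CCATTA, which the NANOG word GCCATTAA contains. It was present in 162 strong sites (23.9%), 22.04% of windows at 6 to 12 RPKM, 20.5% of weaker bound windows and 19.2% of all windows. The words differ in length, so the shares of different words are not comparable with each other. The longer NANOG word was found in 21 strong sites (3.10%, beside 2.72% of bound and 2.51% of all windows). The SOX word CATTGTT was in 122 strong sites (17.99%) and in 15.8%, 13.9% and 12.52% of the same classes in turn, and within 50 bases of the summit 10.3%, 8.65% and 6.55% of strong, 6 to 12 RPKM and weaker bound windows. No search was made with weighted motif models, and 324 strong sites (47.8%) held none of the 9 words.

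The octamer ATGCAAAT, the word of OCT4, was in 16 strong sites (2.36%, beside 2.96% of bound and 3.71% of all windows), and 15 of the 16 were co-bound. At the 15 the median change was 0.45, against 0.71 at the 306 co-bound strong sites without the word, and 0 of the 16 were called higher, beside 9.80% of those 306. The KLF word GGGNGTGG was in 15.04% of strong sites, 15.9% of bound windows and 14.2% of all windows, the ESRRB word TCAAGGTCA in 3.39%, 3.99% and 3.34%, the STAT3 word TTCCNGGAA in 1.92%, 1.63% and 1.35%, the E-box CACGTG in 2.21%, 3.57% and 3.77%, and the PRDM14 word GGTCTCTAA in 1 strong site.

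A set of strong sites shared a sequence that was none of these words. When strong sites were aligned to each other (blastn, at least 100 aligned bases), 94 fell into 12 families, a grouping made after the data were seen. The largest, family A, held 37 sites on 15 chromosomes, among them those near Klf9 and in an intron of Sptlc2 that rank 2 and 5 of all. Its aligned pairs had a median identity of 76.8% over a median of 264 bases, and 1 of the 37 held the homeodomain word. The 5 strongest copies are shown over the stretch of highest sharing, each in the orientation of the family, with capitals where the base is that of at least 80% of the 37 copies.
Family A near Klf9, chr19:23094958-23095077, plus strand: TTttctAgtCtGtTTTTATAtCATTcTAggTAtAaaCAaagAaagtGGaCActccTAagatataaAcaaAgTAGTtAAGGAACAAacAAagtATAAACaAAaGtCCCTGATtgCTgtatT
Family A in Sptlc2, chr12:87318171-87318291, minus strand: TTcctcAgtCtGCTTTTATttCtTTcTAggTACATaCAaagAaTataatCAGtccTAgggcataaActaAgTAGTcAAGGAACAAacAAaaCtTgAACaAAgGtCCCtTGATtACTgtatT
Family A, chr9:101041576-101041693, plus strand: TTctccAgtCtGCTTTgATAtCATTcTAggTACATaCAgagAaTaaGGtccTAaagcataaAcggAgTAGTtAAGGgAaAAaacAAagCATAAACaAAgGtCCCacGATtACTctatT
Family A, chr9:59549152-59549272, plus strand: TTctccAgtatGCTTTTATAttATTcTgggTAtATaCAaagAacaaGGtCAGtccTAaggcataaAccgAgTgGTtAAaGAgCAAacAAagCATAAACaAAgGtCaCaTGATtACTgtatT
Family A, chr1:72793387-72793507, minus strand: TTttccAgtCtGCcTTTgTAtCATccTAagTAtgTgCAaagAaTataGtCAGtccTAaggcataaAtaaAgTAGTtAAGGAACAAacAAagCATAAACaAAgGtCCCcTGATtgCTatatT

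The family was built from strong sites, and a search of the other windows for relatives found 25 of 6 to 12 RPKM, 87 weaker bound windows and 0 below the bound threshold. The median signal of the 37 was 22.4 RPKM, beside 15.99 RPKM for all strong sites, and their medians by library were 12.45 and 20.01 RPKM before and 24.8 and 31.1 RPKM after IAA. Of the 37, 13 (35.1%) were co-bound. Their median change was 0.73, the same to 2 decimals as in the 25 relatives of 6 to 12 RPKM and close to the 0.72 of the weaker relatives. The annotation used here does not name this sequence. The family held the same 37 sites when 150 aligned bases were required and lay within a group of 60 when 60 were enough.

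Family G, with 4 strong sites on 4 chromosomes, was singled out after its values were seen because it showed little change. All 4 were co-bound, and their median signal was 14.7 and 21.7 RPKM before and 16.5 and 18.7 RPKM after IAA. The median log2 change was 0.02 with a range of -0.25 to 0.34, beside 0.70 at all co-bound strong sites. The 3 relatives of 6 to 12 RPKM and 39 weaker bound relatives had medians of -0.02 and -0.07. Over all bound windows with OCT4 co-binding the median was 0.39, but the co-binding of the relatives was not counted. A further 11 relatives lay below the bound threshold. The 4 sequences are given in the orientation of the family, with capitals where the base was shared by all 4.
Family G, chr16:9083865-9083964, plus strand: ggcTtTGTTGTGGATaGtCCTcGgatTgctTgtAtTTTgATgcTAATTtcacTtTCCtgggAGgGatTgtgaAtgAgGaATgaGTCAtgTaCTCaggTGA
Family G, chr12:51521838-51521939, plus strand: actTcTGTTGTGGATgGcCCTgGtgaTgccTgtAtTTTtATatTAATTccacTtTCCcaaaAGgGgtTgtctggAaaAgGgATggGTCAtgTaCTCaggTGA
Family G, chr15:10977267-10977364, minus strand: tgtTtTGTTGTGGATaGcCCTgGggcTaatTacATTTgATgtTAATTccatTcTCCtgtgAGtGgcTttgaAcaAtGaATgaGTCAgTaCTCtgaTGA
Family G, chr9:22732827-22732940, plus strand: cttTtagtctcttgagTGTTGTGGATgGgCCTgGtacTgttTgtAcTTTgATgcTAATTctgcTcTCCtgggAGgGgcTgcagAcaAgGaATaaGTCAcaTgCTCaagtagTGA

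Further families were smaller or mostly repeat-masked. Family B, with 21 sites of which 14 were co-bound, had a median of 76.4% masked bases and a median change of 0.78, and family C, with 8 sites that were all co-bound, one of 0.81. Outside all families, the 584 remaining strong sites changed by a median of 0.86. Near-identical copies (90% identity over 300 bases) were rare, with 21 strong sites (3.10%), and these changed by 0.87.

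Strong sites were looked up near genes of the pluripotency network and its signals. Of 61 genes in 6 lists chosen for this cell type with earlier results of these data known, 57 (93.4%) had a bound window and 22 (36.1%) a strong site within 100 kb of the gene body. Of all 21938 protein-coding genes, 16277 (74.2%) had a bound window and 1936 (8.82%) a strong site within this distance. Gene length and the spacing of genes were not matched between these sets. At the 22 strongest such sites, both treated values exceeded both uninduced values at 13 and lay below them at 0, and 3 were called higher and 0 lower by limma. Of bound windows, 60.5% were separated upwards and 15% called higher, and of all strong sites 81.0% and 19.8%. The median change at the 22 was 0.63, with a range of -0.01 to 1.90, beside 0.84 over all strong sites. Of the 22, 16 were co-bound, and no difference from the other strong sites was tested.

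Among 19 core and naive transcription factors, 7 had a strong site within 100 kb: Pou5f1, Sox2, Esrrb, Klf2, Klf4, Tbx3 and Prdm14. Nanog itself had 9 bound windows within this distance and none of 12 RPKM. At Klf4, a Krüppel-like factor gene of the naive network, the site (chr4:55464367-55464717, 62601 bp from the gene) ranked 11 of all. It had 21.4 and 32.9 RPKM before and 40.3 and 53.8 RPKM after IAA, with both treated values higher (adjusted p = 0.235, limma). At Prdm14, which encodes a repressor of differentiation and of DNA methylation, the site had 15.6 and 26.1 RPKM before and 28.9 and 42.2 RPKM after IAA, again without overlap.

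The Sox2 site (chr3:34745317-34745667), 93031 bp from the gene of the HMG-box partner of OCT4, showed the least change of all 22. It had 26.6 and 30.02 RPKM before and 29.7 and 26.3 RPKM after IAA, a log2 change of -0.01 ± 0.48 (SE). The site 1807 bp from the start of Pou5f1, the endogenous locus of OCT4, had 10.03 and 14.9 RPKM before and 19.9 and 19.0 RPKM after IAA. That in an intron of Esrrb, an orphan nuclear receptor gene, had 17.6 and 22.9 RPKM and then 27.4 and 31.1 RPKM, so that at both loci the treated libraries were higher. At Klf2 the values were 9.68 and 15.4 RPKM before and 14.8 and 16.3 RPKM after IAA and overlapped. The strong site of Tbx3, a T-box factor gene, was not itself co-bound. It had 7.96 and 10.98 RPKM before and 19.7 and 17.4 RPKM after IAA (adjusted p = 0.092, limma). Its uninduced mean was 9.47 RPKM, so it met the rule only through its IAA value, and its p-value is a description only.

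Of 8 genes of the FGF and ERK pathway, 5 had a strong site, the largest share of any list. Besides the Fgf4 site given above, these were sites of the receptor gene Fgfr2, the feedback inhibitor genes Spry2 and Dusp6, and Etv5, an ETS factor gene that responds to ERK. The Spry2 site had 10.4 and 12.9 RPKM before and 18.6 and 28.5 RPKM after IAA (adjusted p = 0.0983, limma). The Dusp6 site, 90 bp from the transcript start, had 7.26 and 12.9 RPKM and then 16.1 and 15.8 RPKM. The uninduced means of these sites were 11.7 and 10.1 RPKM. Both met the rule only through their IAA values, so their rises are a description only. The Etv5 values interleaved, with 8.65 and 16.6 RPKM before and 15.7 and 19.0 RPKM after IAA. The Fgfr2 site is a copy of family A and lies nearest to the start of Cpxm2, within a gene model of Fgfr2 that spans 2960900 bp, so its place at this gene rests on that model.

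Of 10 genes of the LIF, BMP and WNT pathways, 4 had a strong site. Beside Lifr, the site 1446 bp from Il6st, which encodes the gp130 co-receptor of LIF, had 13.8 and 17.8 RPKM before and 17.7 and 20.03 RPKM after IAA. The Id3 site, near the gene of a BMP-induced inhibitor of basic helix-loop-helix factors, had 16.9 and 24.9 RPKM before and 23.5 and 33.2 RPKM after IAA, and the site assigned to Tcf7l1, a repressor of WNT targets, 14.9 and 23.4 RPKM and then 20.2 and 27.9 RPKM, in an intron of its neighbour Kcmf1. In these 3, uninduced replicate 2 was above IAA replicate 1.

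In the NODAL and TGF-beta list, 2 of 7 genes had a strong site and both sites were called higher. The site assigned to Gdf3, a TGF-beta family ligand, lay in an intron of Mfap5 at 95485 bp. It had 5.88 and 13.7 RPKM before and 26.6 and 23.7 RPKM after IAA (adjusted p = 0.0142, limma). Its uninduced mean was 9.77 RPKM, so it met the rule only through its IAA value, and its call is given as a description only. The site of Smad7, an inhibitory SMAD gene, had 10.03 and 14.9 RPKM before and 30.3 and 29.0 RPKM after IAA (adjusted p = 0.0377, limma). Both calls, with that of Fgf4, were lost with quantile normalization, without a variance trend and with either IAA library left out, and those of Gdf3 and Smad7 also with library medians aligned (adjusted p = 0.140 and 0.174, limma) and without uninduced replicate 1 (0.084 and 0.0541). In the DNA methylation and chromatin list, 3 of 7 genes had a strong site: Tet2, and the Polycomb cofactor genes Jarid2 (13.5 and 19.8 RPKM, then 20.02 and 23.2 RPKM) and Mtf2 (14.2 and 18.3 RPKM, then 22.1 and 28.5 RPKM). Of 10 lineage regulators 1, Foxd3, had a strong site and 8 had a bound window, shares near those of all protein-coding genes.

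**Figure D4:**
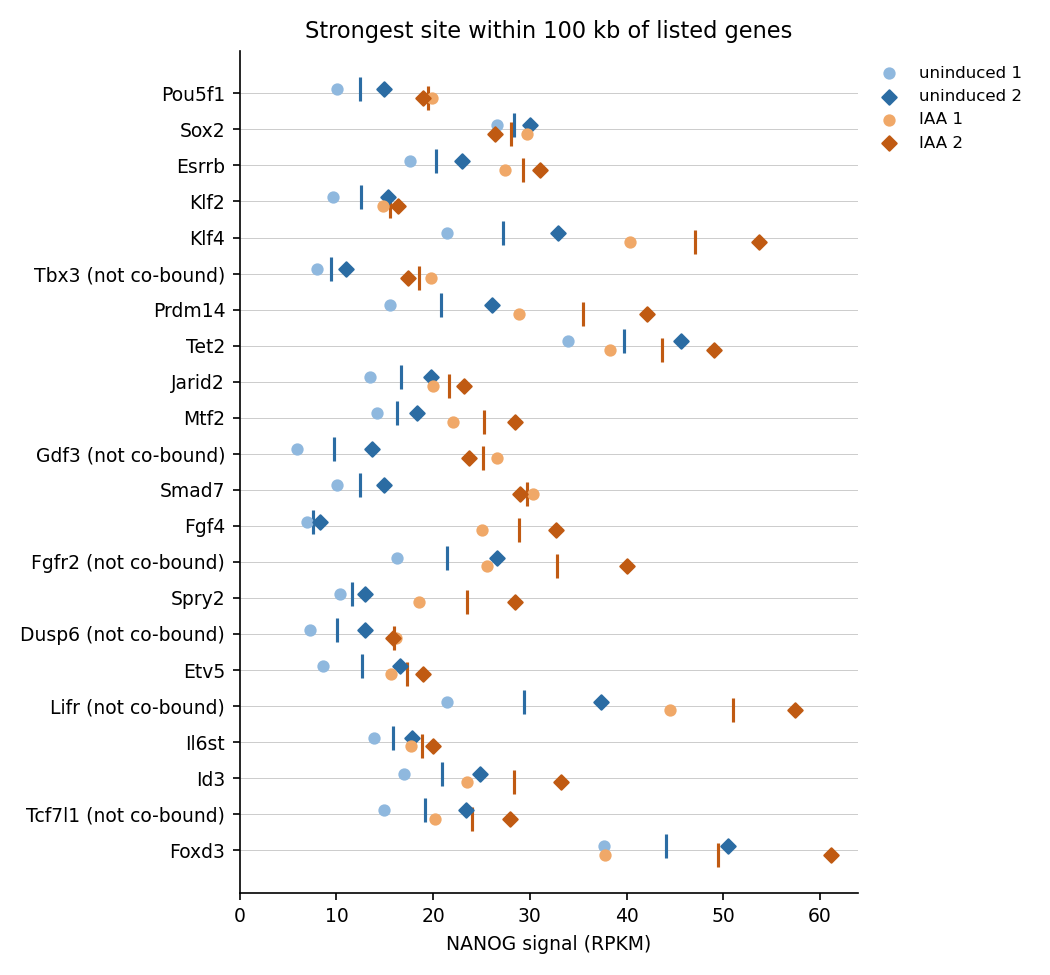
NANOG signal in RPKM (horizontal axis, from 0) in each library at the strongest site of 12 RPKM or more within 100 kb of each of 22 listed genes, with points for libraries and ticks for the mean of the 2 libraries of a condition. At the Fgf4, Smad7 and Gdf3 sites, the 3 called higher, the treated points lie well to the right of the untreated ones, and the Sox2 points lie between 26.3 and 30.02 RPKM in all libraries.

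Which sites were the strongest differed with the condition. The 678 highest windows by the uninduced value and the 678 highest by the IAA value shared 468 (69.0% of each). Replicates shared 518 (76.4%) of their highest 678 in uninduced and 563 (83.0%) in IAA libraries, and libraries of different conditions 424 to 460. Co-bound windows made up 400 (59.0%) of the highest 678 before IAA and 288 (42.5%) after it. Of the 210 windows in the uninduced set alone 160 (76.2%) were co-bound, and of the 210 in the IAA set alone 48 (22.9%) were. Beside these, 51.3% of the 468 shared windows and 23.7% of all bound windows were co-bound. The share in the IAA set alone was thus near that of all bound windows. Among the strong sites, 673 reached 12 RPKM after IAA and 337 before it, and 360 were among the highest 678 of all 4 libraries.

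The 2 IAA libraries diverged with rising signal. Their median log2 gap (replicate 2 minus replicate 1) was -0.01 at 2 to 4 RPKM and 0.14 at 8 to 12 RPKM, then 0.19, 0.22, 0.32 and 0.44 in strong sites of 12 to 15, 15 to 20, 20 to 30 and 30 RPKM or more. In the last class replicate 2 was the higher at 44 of 44 sites. The gap between uninduced replicates was 0.56 to 0.63 throughout these 4 classes. At the same time the gap of IAA replicate 1 to uninduced replicate 2 narrowed from 0.43 at 12 to 15 RPKM to 0.19 at 30 RPKM or more, whereas that of IAA replicate 2 to uninduced replicate 2 was 0.65 and 0.72. IAA replicate 1 is the deepest library, with a median of 250 reads at sites of 30 RPKM or more against 94 in IAA replicate 2, and the authors removed duplicate reads before counting. The part of depth and duplicate removal in this pattern was not tested.

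**Figure D5:**
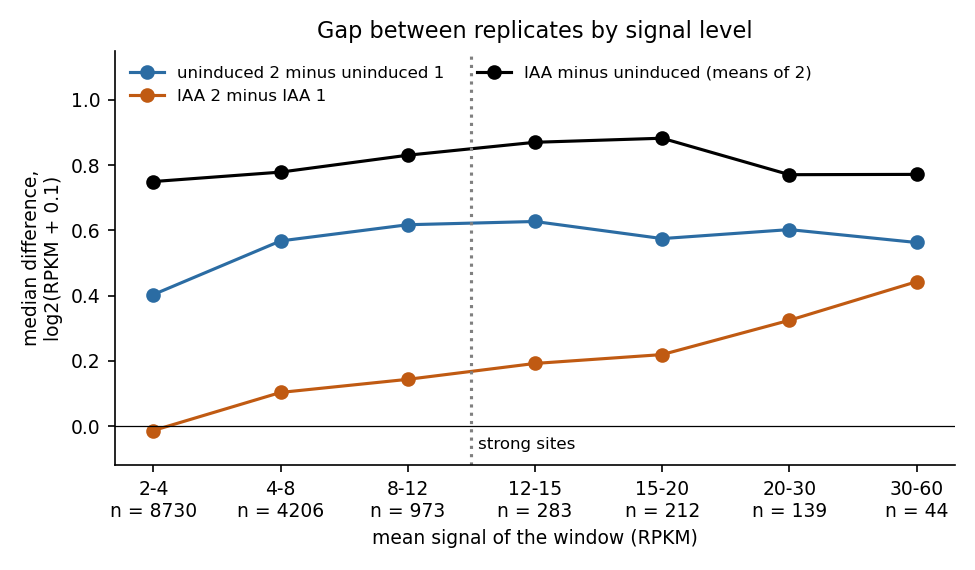
Median log2(RPKM + 0.1) differences between the replicates of each condition and between the conditions, by mean signal of the window, with strong sites to the right of the dotted line and the number of windows under each class. The gap between IAA libraries grows from -0.01 to 0.44 and the gap between uninduced libraries stays between 0.56 and 0.63 among strong sites.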

How the data were processed

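NANOG ChIP-seq libraries were grouped by the labels into uninduced and IAA (2 replicates each). As the study's methods and the submitters' processing notes state, the authors aligned reads to GRCm38/mm10 (Bowtie2 2.3.4.3), removed duplicates, called peaks with MACS2 on the pooled reads of both conditions and deposited RPKM values over windows centred on summits. The deposited flags for OCT4 and chromatin class rest on published peaks. No input or spiked-in chromatin entered these values, so all differences are relative to the total reads of a library.

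Every deposited RPKM value was a whole multiple of the smallest of its library (100.0% of values, tolerance 1e-06), which was taken as 1 read. No value was 0, so 0 reads and 1 read cannot be told apart. A site with the median number of reads has a counting SD of 8.70% to 19.2%, depending on the library. Sites were tested on log2(RPKM + 0.1) with limma (with a variance trend; two-sided; adjusted p below 0.05 by the Benjamini-Hochberg method across the bound windows); on this scale, changes at low signal come out too small. Library statistics were compared by exact permutation tests. On simulated reads of 16608 windows with 200 changed by a fold of 4, limma recovered 165 (82.5%) with 6 false calls. The simulation held no offset between replicates and no shift shared by most windows, and its changes were larger than those of most strong sites. These rates therefore do not describe the calls made at strong sites.

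The sites, gene lists and families were chosen with earlier results of these data known. Named sites were the 10 strongest, 3 on either side of the threshold, the 5 largest rises and falls with separated conditions, and the strongest site within 100 kb of each listed gene. Sequences and positions (1-based) were read from the reference of GRCm38, with 0 windows past a chromosome end, and genes from GENCODE mouse release M21. Alternatives were other pseudocounts (0.01, 0.5), filters (all windows, 2 RPKM), member thresholds (10, 15 RPKM, 12 in both conditions), quantile normalization, median centring, a replicate block, no trend, voom on recovered reads, thinning, and each library left out. Sequence families, and the results without sites of a family or with a near-identical copy, were added after the data were seen. Families joined sites aligned by blastn 2.17.0 (E value up to 1e-05), near-identical copies were found with minimap2 2.31, and copies were aligned with mafft 7.526. Other software was Python 3.11.15, numpy 2.4.6, pandas 2.3.3, scipy 1.17.1, matplotlib 3.10.9, R 4.3.3 and limma 3.58.1.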

Additional observations from a re-analysis of the deposited data

How the results depend on the processing

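The number of strong sites called higher by limma (134) was 110 to 138 with pseudocounts of 0.01 and 0.5, over all windows or at 2 RPKM or more. It was 0 with quantile normalization, 9 with median centring, 0 without a variance trend (183 at an unadjusted p below 0.05), 391 with the replicate block and 210 with voom. With 1 library left out it ranged from 0 to 491, the lowest with either IAA library left out and the highest without uninduced replicate 2. The number called lower (1) was 0 with a pseudocount of 0.01, over all windows and without a trend, 16 with median centring, and 0 to 4 with 1 library left out. Quantile normalization and median centring, by construction, remove the shift of 0.76 log2 units shared by bound windows. Where an arm was left with 1 library, that library was assumed to vary like the others.

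Deviations of same-numbered libraries from the condition means correlated at r = -0.02 over strong sites. This correlation leaves out any offset shared by all sites of a library, so it cannot tell whether same-numbered libraries were paired. With the block 11 of 41 named sites gained the call and 0 lost it.

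The difference of library medians was 0.67 to 0.82 under the other pseudocounts, thresholds, thinning and subsets of sites, 0.04 with quantile normalization, and 0.49 to 1.13 with 1 library left out. The change of strong sites relative to bound windows was -0.030 with 12 RPKM in both conditions and -0.0058 when thinned. The difference in the share of bound reads (0.68 percentage points) was -0.63 with 12 RPKM in both conditions and -0.40 to 1.77 with 1 library left out. The difference between co-bound and other sites kept its sign in every alternative run, from -0.39 at 10 RPKM to -0.16 with 12 RPKM in both conditions. Of 533 values of 41 named sites under the limma alternatives, 462 kept their side of the threshold, 44 lost the call, 27 gained it and 0 called ones reversed. Depth limits the uninduced libraries and IAA replicate 2, with medians of 27, 60 and 42 reads at strong sites.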

Other observations

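Of the 63 strong sites within 1 kb of a transcript start 33.3% were co-bound, and of the 615 distal ones 48.8%, with a median change after IAA of 0.95 and 0.82 on the log2 scale. Of the 63, 18 (28.6%) were called higher by limma, and of the distal sites 116 (18.9%). Called higher were 19.8% of all strong sites and 15% of all bound windows. The uninduced medians were 8.30 and 13.4 RPKM at the 63 and 9.68 and 14.6 RPKM at the distal sites. Sites could meet the rule through their IAA value alone, so nothing is read from these shares. The 58 strong sites that were at least 50% repeat-masked were co-bound at 58.6%, changed by a median of 0.75 and included 8 (13.8%) called higher. No test of these differences was made, since sites of the same libraries are not replicates of the treatment.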
